A study of Mus musculus with 5 samples.

Results

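Podocytes were the 64 cells that the annotation of the authors assigns to the cluster GL podo, out of 14197 kidney cells of 19 annotated types. They made up 0.451% of all cells and were the 18th largest type. The cells came from adult mice of the *FVB/Ant* strain, and the study asked how the kidney changes when *Fame* (*Ccdc198*) is lost. Knockout (KO) mice carry a double stop codon inserted by CRISPR/Cas9 behind the start codon of *Fame*, and wild type (WT) mice were their littermates. Kidneys of perfused mice were digested with collagenase P and trypsin, and RNA was counted from its 3′ end by molecular barcodes (UMIs), so that each captured molecule counts once and no value is per gene length. The 3 KO libraries were KO female, KO male and KO mix, and the 2 WT libraries were WT female and WT mix, where mix stands for pooled male and female cells. No male-only WT library was analysed here, and the sources used here do not give the number of mice in a library. All p-values therefore cover only differences among these libraries, which may be technical. The KO female library held 1 podocyte, the KO male library 2 and the KO mix library 26, against 5 in WT female and 30 in WT mix. The mixed libraries therefore held 56 of the 64 cells, and the 3 single-sex libraries held 8. The annotation gives one sequencing run for both mixed libraries and another for the single-sex libraries, so the run and the pooling of the sexes cannot be told apart.

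Podocytes are the epithelial cells that cover the outer face of the glomerular capillaries. Their foot processes interlock, and the gap between neighbouring foot processes is bridged by the slit diaphragm, a cell junction built around nephrin that holds back plasma protein. Podocytes also make collagen and laminin chains of the glomerular basement membrane, feed the capillary endothelium with vascular growth factor, and have left the cell cycle in the adult.

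The markers went with the label, from which they are not independent. A set of 10 podocyte markers, of which *Nphs1*, *Podxl*, *Synpo*, *Wt1*, *Ptpro*, *Cdkn1c*, *Clic3* and *Magi2* are reported singly, together reached 20781 counts per 1000000 UMIs (CPM) in podocytes, and 581 CPM in myeloid cells, the next type in this order. A podocyte carried a median of 9 of the 10 markers, and 61 of 64 carried at least 5, whereas 4 of 940 glomerular endothelial cells and 1 cell each of PE, PT_c, LOH and PT_s did so. On the deposited UMAP coordinates no other cell lay within the radius of the cluster, and the nearest was a cell of the type PE. Because these genes shaped the cluster, their levels are a description with no test.

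The sequences before the start site of 3 genes are shown because these genes were found almost only in podocytes, *Nphs1* being the gene that defines the cells here. Each is the 250 bases before the start in RefSeq (GRCm38.p6), on the strand of the gene, for *Nphs1* at chr7:30459808-30460057 on the plus strand, *Tdrd5* at chr1:156303349-156303598 on the minus strand and *Clic3* at chr2:25456593-25456842 on the plus strand. Capitals mark GTGGGNG on either strand, a core of the motif bound by the podocyte factor Wt1.
Nphs1: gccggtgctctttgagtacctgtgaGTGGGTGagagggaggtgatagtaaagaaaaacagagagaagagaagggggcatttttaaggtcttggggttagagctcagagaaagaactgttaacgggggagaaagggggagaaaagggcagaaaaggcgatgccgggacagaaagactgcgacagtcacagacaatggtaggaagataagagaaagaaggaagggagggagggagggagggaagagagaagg
Tdrd5: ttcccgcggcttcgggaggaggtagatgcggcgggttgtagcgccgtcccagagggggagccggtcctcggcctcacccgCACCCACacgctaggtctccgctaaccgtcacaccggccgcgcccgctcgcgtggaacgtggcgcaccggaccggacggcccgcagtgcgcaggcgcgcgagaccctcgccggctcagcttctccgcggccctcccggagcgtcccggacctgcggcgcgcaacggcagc
Clic3: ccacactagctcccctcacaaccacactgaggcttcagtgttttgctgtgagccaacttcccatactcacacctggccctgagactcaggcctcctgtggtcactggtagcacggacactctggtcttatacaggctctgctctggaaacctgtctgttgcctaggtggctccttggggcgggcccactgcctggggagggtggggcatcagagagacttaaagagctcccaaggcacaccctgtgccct
In *Nphs1* the match began 225 bases before the start, in *Tdrd5* it lay on the other strand and began 170 bases before it, and the *Clic3* window held none. Of the 15 leading genes, 8 had an entry, with 11 start sites in all. GTGGGNG was in 6 of these 11 windows, and in 28.1% of all 32851 promoter windows of the same length. CAGCTG, an E-box, was in 2 of the 11 (13.001% of all windows), TGCTGA, a Maf core, in 1 (16.1%), TAATTA in 1 (4.84%) and the forkhead motif TGTTTNC in 0 (17.8%). No overlap between motifs was removed, and a match is only a run of letters.

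The leading genes were ranked by their CPM in podocytes over the highest CPM in any other type, among the 687 genes with at least 50 podocyte UMIs. Of these genes 232 were highest in podocytes, 24 by more than 10-fold and 7 by more than 100-fold. *Nphs1* (nephrin, the adhesion protein of the slit diaphragm; GRCm38 chr7:30458315-30487223) led with 1236 CPM in podocytes and 1.70 CPM in myeloid cells, the next type, a 728-fold ratio. *Ddn*, coding for dendrin of the slit diaphragm complex, had a ratio of 313 and *Hs3st6*, a heparan sulfate sulfotransferase, one of 228. The small GTPase gene *Rab3b* (132-fold), *Myom2* (130-fold) and *Tdrd5* (101-fold) came next. *Tdrd5* is known for its role in male germ cells. The levels of the next type under the highest ratios were very low, such as 1.70 CPM for *Nphs1* and 0.752 CPM for *Ddn*. Such levels rest on very few UMIs, so the size and order of these ratios and the next type are rough.
Among the remaining leading genes, *Rhpn1*, coding for rhophilin, had a ratio of 81.3, the cell cycle inhibitor gene *Cdkn1c* 72.1 and the chloride channel gene *Clic3* 71.1. *Magi2* (33.2-fold) codes for a scaffold beneath the slit diaphragm, *Robo2* (28.5-fold) for a Slit receptor and *Synpo* (22.7-fold) for synaptopodin on actin. The last were the glycosyltransferase gene *Mgat5* (19.3-fold) and *Shisa3* (15.7-fold), just ahead of *Thsd7a* at 14.99-fold. The type with the next highest level differed from gene to gene, with none behind more than 2 of the 15. Over all 232 genes highest in podocytes it was most often GL sc (47 genes), the putative glomerular stem cells, and PE (43 genes). Reads of the overlapping genes on the other strand (B130046B21Rik at *Ddn*, *Paxx* at *Clic3*, *Tmem163* at *Mgat5* and *Atp8a1* at *Shisa3*) may not be separable, as the sources used here do not say whether counting used strand.

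**Figure D1:**
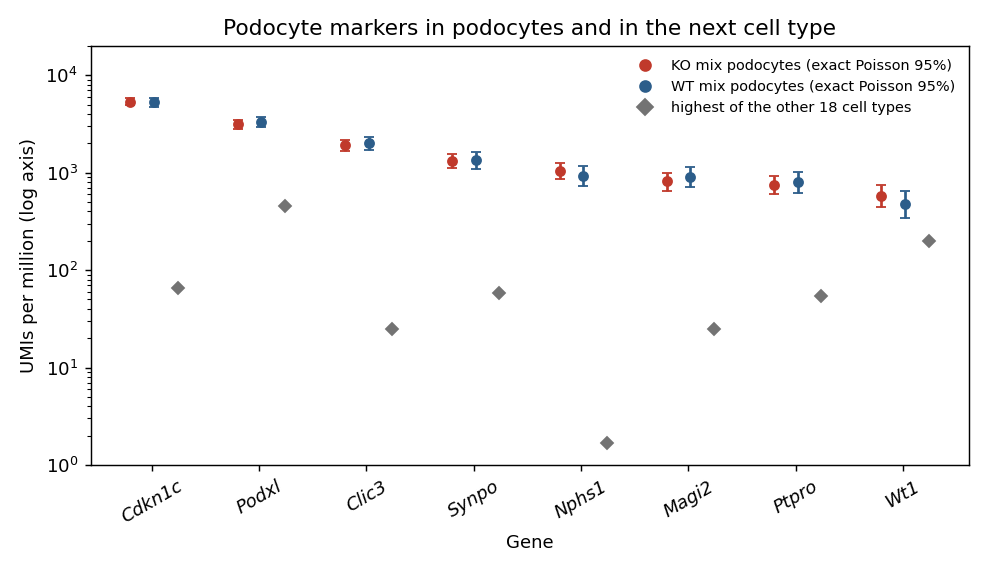
UMIs per 1000000 (log axis) of 8 podocyte markers in KO mix podocytes (red, 26 cells) and WT mix podocytes (blue, 30 cells), with exact Poisson 95% intervals, and in the highest of the other 18 cell types (grey diamonds). *Nphs1* stood at 1046 CPM in KO mix and 934 CPM in WT mix, against 1.70 CPM in myeloid cells, while *Wt1* had the smallest distance to its next type, PE at 200 CPM.

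Slit diaphragm genes were nearly all found. Of 19 measured members of this list 16 had a UMI in podocytes, 11 had at least 20 and 13 were highest in podocytes. *Nphs1* gave 4, 0 and 117 UMIs in KO female, KO male and KO mix, against 81 and 76 in WT female and WT mix. It was seen in 51 of 64 podocytes (79.7%, exact 95% interval 67.8 to 88.7%), at a median depth of 2262 UMIs. Among proximal straight tubule cells (PT_s, median depth 5198 UMIs) it was seen in 9 of 2958 (0.304%), a gauge of free RNA. As this gene defines the cells, the higher share in podocytes is a description. The endocytic adaptor gene *Cd2ap* gave 203 UMIs, *Magi2* 186, the phosphatase gene *Ptpro* 182 and the phospholipase gene *Plce1* 76. *Kirrel* (Neph1, which binds nephrin across the gap) gave 13, and *Kirrel3*, the cation channel gene *Trpc6* and *Magi1* gave 0 of 224961 podocyte UMIs, which allows a level of up to 13.3 CPM. *Trpc6* was thus not detectable at this depth, and its highest level elsewhere was 26.7 CPM in GL sc.

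Genes of the foot process and its actin skeleton gave the most UMIs of these lists, 9899. Of 35 members 34 were detected, 31 with at least 20 UMIs, and 25 were highest in podocytes. *Tmsb4x*, coding for an actin-binding peptide, gave 3886 UMIs and *Actb* 925, and both were higher in myeloid cells. *Podxl* (podocalyxin, the charged coat of the foot process) gave 13, 3 and 350 UMIs in KO female, KO male and KO mix, against 137 and 271 in WT female and WT mix. Its next level was 458 CPM in glomerular endothelium, which is known to carry podocalyxin too, against 3441 CPM in podocytes. *Nupr1*, a stress-response gene placed in this list, gave 608 UMIs, *Clic3* 401 and *Clic5*, coding for a channel protein tied to ezrin, 360. *Synpo* gave 0, 1 and 147 UMIs in KO female, KO male and KO mix, against 42 and 109 in WT female and WT mix. *Anln*, coding for the actin bundler anillin, gave none.

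Transcription factors gave fewer UMIs. Of 18 measured members 17 were detected and 12 had at least 20 UMIs. *Wt1*, the master regulator of the lineage, gave 1, 0 and 65 UMIs in KO female, KO male and KO mix, against 8 and 39 in WT female and WT mix. *Tcf21*, coding for an E-box factor, had 110 UMIs, *Dach1* 82, *Foxd1* 53 and *Foxc2* 47. *Lmx1b*, the gene of nail-patella syndrome, gave only 20 UMIs, but its next level was 1.32 CPM, against 88.9 CPM in podocytes. *Pax2* and *Pax8*, nephron factors that mature podocytes are known to switch off, gave 1 and 2 UMIs.

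Among basement membrane genes the collagen IV chains differed. *Col4a3*, *Col4a4* and *Col4a5*, the chains of the adult glomerular membrane, gave 184, 203 and 42 UMIs and were each highest in podocytes. *Col4a1* and *Col4a2*, the ubiquitous chains, gave 9 and 6 UMIs, and reached 580 CPM in PE and 269 CPM in fibroblasts, against 40.01 and 26.7 CPM in podocytes. *Col4a4* and *Col4a3* lie head to head on chromosome 1 with 71 bases between their annotated ends. *Lamb2* and *Lama5*, laminin chains of the same membrane, gave 26 and 21 UMIs, and *Lama1* and *Nid1* gave none. *Sparc* (538 UMIs), the matricellular protein gene, *Sdc4* (522), *Timp3* (503), a protease inhibitor gene, and *Npnt* (250), coding for nephronectin, gave the most. Of 20 members 18 were detected, 11 with at least 20 UMIs, and 7 were highest in podocytes.

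Secreted factors and receptors were mixed. *Vegfa*, the growth factor of the glomerular endothelium, gave 1, 0 and 117 UMIs in KO female, KO male and KO mix, against 20 and 81 in WT female and WT mix, and stood at 974 CPM against 93.8 CPM in the next type. *Sema3g*, a semaphorin gene, gave 299 UMIs, the protease gene *Htra1* 132 and *Robo2* 121. *Ccn2* (connective tissue growth factor) gave 105 UMIs and *Angptl2* 77, and *Ccn2* was higher in GL sc, at 3312 CPM. *Angpt1*, *Tgfb1*, *Edn1*, *Sema3a*, *Slit2* and *Fgf1* gave 0 UMIs, each with the same limit of 13.3 CPM. Of 24 receptors 9 had at least 20 UMIs, led by the natriuretic peptide clearance receptor gene *Npr3* (109), the phagocytic receptor gene *Mertk* (87), *Igf1r* (52), *Bmpr2* (42), *Fgfr1* (34) and *Npr1* (30). The phospholipase A2 receptor gene *Pla2r1*, whose product is the main autoantigen of human membranous nephropathy, gave 0 UMIs in these mouse podocytes and reached 124.6 CPM in GL sc. *Nr3c1*, the glucocorticoid receptor gene, gave 20 UMIs, and *Nr3c2*, the mineralocorticoid receptor gene, none. All 23 UMIs of the receptor gene *Kdr* and all 18 of *Ednrb*, both known from endothelium, were found in 1 WT female podocyte each. For *Kdr* this was the deepest podocyte, which also held UMIs of other endothelial genes and of haemoglobin. *Kdr* is among the 9 receptors only through that cell.

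Of 10 complement regulators, 6 were detected. *Cd59a*, which blocks the membrane attack complex, gave 449 UMIs and was 5.82-fold above the next type, and *Cd55* (decay accelerating factor) gave 59 UMIs and was 4.63-fold above it. *Cr1l* gave 26. *Clu*, coding for the secreted inhibitor clusterin, gave none.
Of the cell cycle list only *Cdkn1c* (p57, an inhibitor of cyclin-dependent kinases) passed 20 UMIs, with 2, 0 and 596 UMIs in KO female, KO male and KO mix, against 33 and 428 in WT female and WT mix. Relative to depth it was at 1406, 0 and 5330 CPM in the KO libraries and at 1202 and 5261 CPM in the WT libraries. The mixed libraries thus stood above the single-sex ones in both genotypes, but KO female and KO male held 1 and 2 podocytes. In WT female the deepest cell was at 842 CPM and the other 4 cells at 2200 CPM. *Mki67*, *Top2a*, *Cdk1* and *Mcm2*, genes of dividing cells, gave no UMI in any podocyte. Of 53 measured mouse counterparts of genes mutated in human podocyte disease, 47 were detected and 27 were highest in podocytes.

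**Figure D2:**
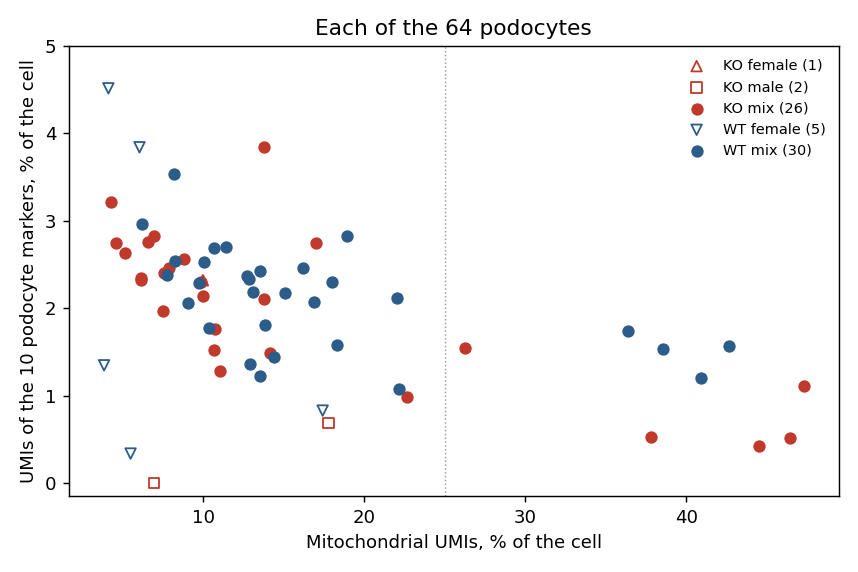
Each of the 64 podocytes by its mitochondrial UMIs (percent of the cell, x axis) and its UMIs of the 10 podocyte markers (percent of the cell, y axis). KO is red and WT blue, mixed libraries are filled and single-sex libraries open, and the dotted line is at 25%. The 9 cells right of the line lay between 26.2 and 47.3% mitochondrial UMIs, and each had a marker share under the median of its library.

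The podocytes varied in depth, marker share and foreign RNA. They held 1015 to 20188 UMIs. In KO mix the 10 markers took 0.426 to 3.85% of the UMIs of a cell, with a median of 2.22%, and in WT mix 1.08 to 3.53%, with a median of 2.18%. One of the 2 KO male cells had no UMI of any of the 10 markers, so only its annotation makes it a podocyte.
Of the mixed-library podocytes, 5 in KO mix and 4 in WT mix were above 25% mitochondrial UMIs. In these 9 cells *Gpx3*, a secreted peroxidase of the proximal tubule, was at 5506 CPM, against 1178 CPM in the other 47, and *Cdkn1c* was at 2090 CPM, against 5895 CPM. Their median Scrublet doublet score was 0.169, against 0.0867. Counted against non-mitochondrial UMIs, the 10 markers were at 13146 CPM in the high cells of KO mix against 25551 CPM in its other cells, and at 25550 against 26731 CPM in WT mix. The authors ran Scrublet before filtering, and no further cell was removed here.

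**Figure D3:**
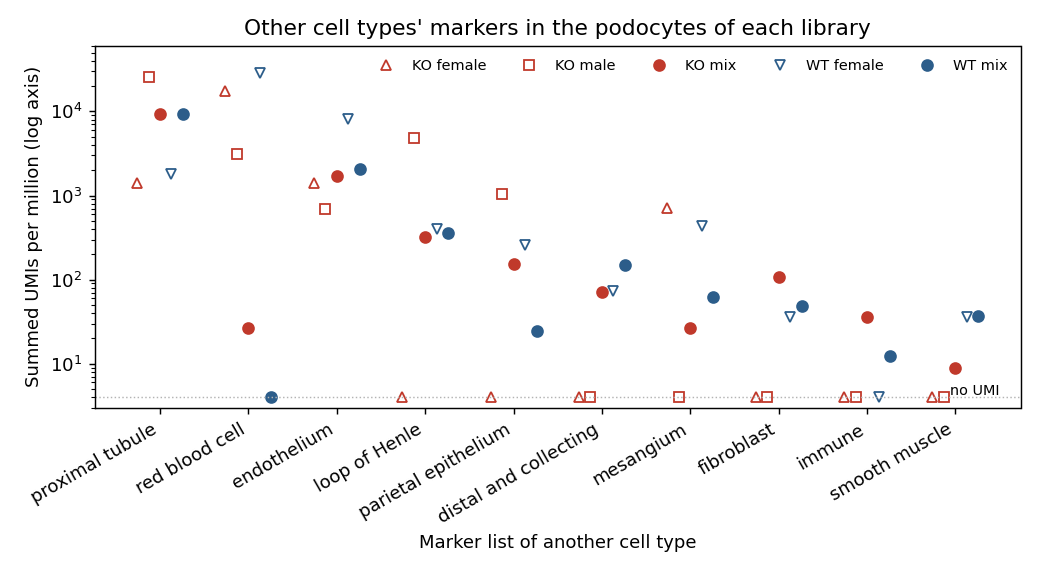
Summed UMIs per 1000000 (log axis) of marker lists of 10 other cell types in the podocytes of each library, KO in red and WT in blue, mixed libraries filled and single-sex libraries open, with lists without a UMI on the dotted line. The endothelial list was highest in WT female, at 8120 CPM, and the red blood cell list was high in the single-sex libraries and at 26.8 CPM in KO mix and 0 in WT mix.

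Markers of other cell types were uneven between libraries. All 13 endothelial markers had a UMI, but *Plat* (plasminogen activator, 399 UMIs) was higher in podocytes than in any other type, and the other 12 came mostly from 1 WT female cell with 20188 UMIs, the deepest podocyte. Without *Plat* that cell held 165 endothelial UMIs and 733 haemoglobin UMIs, together with 58 of the 81 *Nphs1* UMIs of WT female, while the other 4 WT female podocytes held 1 endothelial UMI. *Kdr*, *Emcn* and *Pecam1* gave 0, 1 and 0 UMIs in KO mix and 0, 0 and 0 in WT mix.
The proximal tubule list, with all 15 markers detected, ran from 1406 to 25544 CPM over the 3 KO libraries, against 1784 and 9194 CPM in WT female and WT mix. *Kap*, an androgen-driven gene of the proximal tubule, was in every podocyte of KO mix (median 11 UMIs, up to 206 in 1 cell) and of WT mix (median 12), as it was in every glomerular endothelial cell of these libraries (medians of 12 and 13). Haemoglobin *Hbb-bs* was in all 8 podocytes of the single-sex libraries and in 2 of 26 in KO mix and 0 of 30 in WT mix. This was so for whole libraries, with *Hbb-bs* in 100, 99.4 and 3.92% of all cells in KO female, KO male and KO mix. In WT female and WT mix it was in 99.96 and 0.894% of all cells. Mesangial *Gata3* and *Itga8*, parietal *Cldn1* and *Krt18*, and *Ptprc*, *C1qa* and *Acta2* of immune and muscle cells were at 0 in all podocytes. Mesangial markers summed to between 0 and 703 CPM over the KO libraries, against 437 and 61.5 CPM in WT female and WT mix, parietal markers to between 0 and 1036 CPM, against 255 and 24.6 CPM, and immune markers to at most 35.8 CPM, against 0 and 12.3 CPM. The part of free RNA and of doublets in the gene levels was not tested.

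Sex markers differed between both mixed libraries. *Xist*, transcribed from the inactive X chromosome of female cells, was found in 19 of 26 KO mix podocytes (73.1%, exact 95% interval 52.2 to 88.4%) and in 4 of 30 WT mix podocytes (13.3%, 3.76 to 30.7%), with 93 against 8 UMIs. Y-linked genes were found in 5 KO mix podocytes (19.2%) and 10 WT mix podocytes (33.3%). After thinning to 1000 UMIs per cell, *Xist* was in 42.3% of KO mix and 6.67% of WT mix podocytes, and in 26.1% of the other KO mix cells and 8.18% of the other WT mix cells. The Y-linked share was 11.5% in KO mix and 6.67% in WT mix podocytes after thinning, the opposite order to the unthinned shares. No order is therefore read from it in podocytes. In the other cells the thinned Y-linked share was 5.59% in KO mix and 11.1% in WT mix. The sex of the cells and the genotype cannot be told apart in these libraries. Podocytes also differed in depth, with a median of 3994 UMIs in KO mix and 2124 UMIs in WT mix, a ratio of 1.88, against 0.832 to 1.32 in the 15 other types with at least 20 cells in both. No test of that difference can be had with 1 library a genotype.

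**Figure D4:**
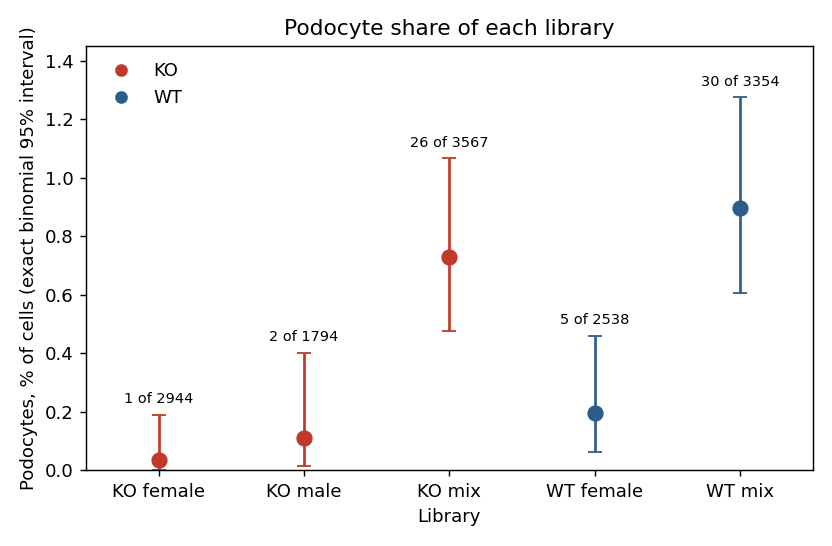
Podocytes as percent of all cells (y axis) in each library (x axis), KO in red and WT in blue, with exact binomial 95% intervals and the cell numbers. The mixed libraries of both genotypes lay at 0.729 and 0.894%, above all single-sex libraries, the highest of which was WT female at 0.197%.

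The first comparison between genotypes was the number of podocytes. Their share of cells was 0.0340% in the KO female library (exact 95% interval 0.000860 to 0.189%), 0.111% in KO male (0.0135 to 0.402%) and 0.729% in KO mix (0.477 to 1.07%), against 0.197% in WT female (0.0640 to 0.459%) and 0.894% in WT mix (0.604 to 1.27%). The mean was 0.291 ± 0.381% in KO (SD, n = 3) and 0.546 ± 0.493% in WT (SD, n = 2), and the groups overlapped. The mixed libraries share a label but differed in sex markers, with *Xist* in 26.1% of other KO mix cells and 8.18% of other WT mix cells after thinning. Within libraries of like label the KO share was the lower one both times, with overlapping intervals. It was 0.0340% in KO female against 0.197% in WT female, and 0.729% in KO mix against 0.894% in WT mix. A fit of these 4 libraries with the pair as a block, chosen after seeing the data, gave a log2 difference of -0.73 (edgeR, adjusted p = 0.982). The quasi-likelihood test of edgeR over all 19 types gave a log2 difference of -0.86 (p = 0.525, adjusted p = 0.949), and the exact two-sided permutation test over libraries gave p = 0.5, where 0.1 is the smallest value that 3 against 2 libraries allow. With mixed or single-sex library as a block the log2 difference was -0.68 (adjusted p = 0.989). Between the mixed libraries alone the intervals overlapped. Without WT mix the log2 difference turned to 0.60, and without KO mix it was -2.96 (adjusted p = 0.623). Set against podocytes plus glomerular endothelial cells, podocytes were 0.775, 2.08 and 8.07% in KO female, KO male and KO mix, against 3.31 and 9.80% in WT female and WT mix. No difference in share was called, and yield on dissociation and number in the kidney cannot be told apart in these shares.

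The second comparison asked which genes differed in podocytes between genotypes. UMIs were summed over the podocytes of each library, and 1943 genes with at least 20 UMIs were tested with the quasi-likelihood test of edgeR. None was called at an adjusted p of 0.05 (0 of 1943, 0%), with 24 genes at an unadjusted p under 0.05, 19 of them lower in KO. DESeq2 and limma-voom also called 0, with 2 and 51 genes at an unadjusted p under 0.05. Of the lists none had a called member, and their median log2 differences were -0.48 for 11 slit diaphragm genes, -0.60 for 31 foot process genes, -0.24 for 12 transcription factors, -0.42 for 11 basement membrane genes, -0.68 for 10 secreted factors, -0.31 for 9 receptors, -0.90 for 3 complement regulators and -0.57 for 26 disease genes, beside -0.29 over all genes tested. The 9 receptors include *Kdr*, whose UMIs all lay in the deepest WT female podocyte. *Nphs1* had the lowest p of the slit diaphragm list, with a log2 difference of -1.63 (edgeR, adjusted p = 0.9995). Its levels overlapped at 2813, 0 and 1046 CPM in KO female, KO male and KO mix, against 2950 and 934 CPM in WT female and WT mix. The other members with the lowest p had log2 differences of -0.79 (*Magi2*) and -0.67 (*Ptpro*) in the slit diaphragm list. In the foot process list they were at -1.37 (the scaffold gene *Slc9a3r2*), -1.32 (*Synpo*), -1.23 (podoplanin, *Pdpn*) and 0.91 (*Tln1*), and among transcription factors at -1.47 (*Klf6*), -1.38 (*Tead1*) and 1.12 (*Foxd2*). Basement membrane genes were at -1.10 (agrin, *Agrn*), -1.22 (*Sparc*), -0.97 (*Timp3*) and -0.87 (*Col4a5*), and secreted factors at -0.90 (*Ccn1*), -1.004 (*Sema3e*), -0.67 (*Bmp7*) and -0.90 (*Sema3g*). Receptors other than *Kdr* were at -0.79 (*Npr1*), -0.94 (*Bmpr2*) and -0.52 (*Tgfbr3*), complement regulators at -1.03 (*Cd59a*), -0.90 (*Cd55*) and 0.15 (*Cr1l*), and disease genes at -1.53 (*Dlc1*) and -1.13 (*Myo1e*). None of these was called, each with an adjusted p of 0.9995 from edgeR. The 23 early-response and heat-shock genes tested, described with the mixed libraries, had a median of -1.01, with *Klf2* (-3.03, adjusted p = 0.980), *Btg2* (-2.30), *Ier2* (-1.90) and *Dusp1* (-1.86) lowest in p and none called.
The lowest p-values belonged to *Sgk1*, a kinase gene outside the lists, and to members of the endothelial marker list. *Sgk1*, *Ehd3* and *Kdr* had an adjusted p of 0.0849 and *Emcn* one of 0.104, with 0, 0, 0 and 1 UMIs in all KO podocytes. *Kdr* gave 23 UMIs and *Emcn* 43 in WT female and 0 in WT mix, and after the deepest WT female cell was left out, as an alternative chosen after seeing the data, WT female had 0 UMIs of both. Without that cell the smallest adjusted p was 0.999. Using only the 3 libraries with at least 5 podocytes leaves KO mix as the 1 KO library, without a replicate, so no calls are read from that fit. With genes kept over all 5 libraries it gave log2 differences of -8.41 (*Hbb-bt*), -8.27 (*Sgk1*), -8.01 (*Kdr*) and -7.74 (*Ehd3*). *Hba-a1* was at -7.65, *Emcn* at -6.37, *Ctla2a* at -5.56 and *Plpp1* at -5.16. These genes reached 20 UMIs only with the deepest WT female cell. Without it WT female held 0 UMIs of *Sgk1*, *Ctla2a* and *Plpp1*, 1 of *Ehd3*, 5 of *Hbb-bt* and 11 of *Hba-a1*. Over all 5 libraries *Hbb-bt* was at -1.71 and *Hba-a1* at -3.07.

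**Figure D5:**
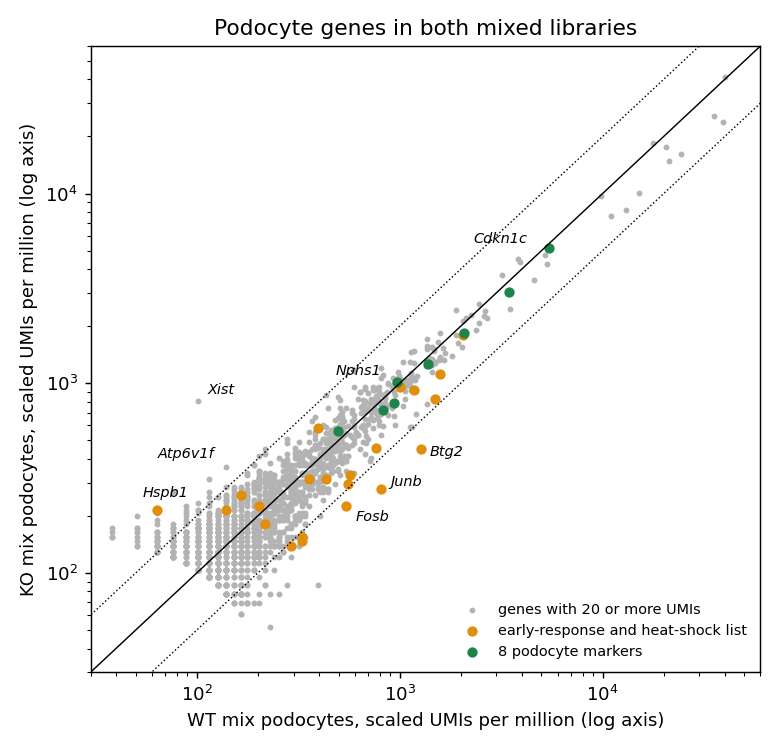
Scaled UMIs per 1000000 (both axes log) of genes with at least 20 UMIs in the podocytes of KO mix (y axis) and WT mix (x axis), with the early-response and heat-shock list in orange and 8 podocyte markers in green. The solid line marks equal levels and the dotted lines a 2-fold difference. The markers lay near the solid line, and *Xist* was at 804 in KO mix and 102 in WT mix.

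The third comparison used the mixed libraries alone, with 26 KO mix and 30 WT mix podocytes. With 1 library a genotype it has no replicate check and no test, and intervals are exact and cover counting error only. After TMM scaling, 71 of 1662 genes were at least 2-fold higher in KO mix (4.27%) and 50 were at most 0.5-fold (3.01%), and the median log2 ratio was 0.01. With raw UMI totals the split was 90 higher and 28 lower, as the median moved to 0.11. Both shares are mostly genes with few UMIs, since only 9 of 589 genes with at least 50 UMIs passed the same fold.
Podocyte genes lay close together in both libraries. *Nphs1* had a scaled level of 1012 CPM in KO mix and 966 CPM in WT mix, a log2 ratio of 0.07 with a 95% interval of -0.36 to 0.50. *Podxl* was at -0.19 (-0.42 to 0.05), *Cdkn1c* at -0.08 (-0.26 to 0.10) and *Wt1* at 0.18 (-0.41 to 0.79). The 8 markers reported singly lay between -0.26 (*Magi2*) and 0.18 (*Wt1*). After thinning to 1000 UMIs per cell *Nphs1* was at -0.57 and *Wt1* at 0.82. Podocytes were also split by *Xist*, an alternative chosen after seeing the data that leaves few cells on 1 side. *Synpo* was then at -0.20 in podocytes without a *Xist* UMI and at 1.20 in those with one, and *Magi2* at -0.81 and 0.62. *Clic3* was at -0.70 and -0.04, and the other markers reported singly stayed within their intervals. Over all genes 121 of 1662 passed the fold in either direction (7.28%), so few are awaited in a short list. Of 11 slit diaphragm genes 0 passed it, and their median log2 ratio was -0.10. Of 31 foot process genes 1 did, *Tln1*, coding for the integrin linker talin, with 23 against 4 UMIs (log2 1.97, 0.42 to 3.96), and their median was 0.00. Of 12 transcription factors *Klf6* and *Tead1* were below 0.5-fold with 16 against 23 and 9 against 13 UMIs. Their intervals were wide, at -2.10 to -0.10 for *Klf6* and -2.49 to 0.25 for *Tead1*. Of 10 basement membrane genes 0 passed the fold, and of 9 secreted factors *Ccn1* alone, with 17 against 26 UMIs (-2.14 to -0.23).

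The genes farthest apart among those with at least 50 UMIs were few. *Xist* was highest (log2 ratio 2.98, 1.95 to 4.24), followed by the proton pump gene *Atp6v1f* with 42 UMIs in KO mix and 11 in WT mix (1.38, 0.39 to 2.48), *Crim1* (1.06), coding for a membrane protein that binds growth factors, the acid phosphatase gene *Acpp* (1.03), *Arpc2* (1.0005), a subunit of the actin-branching complex, the tubular enzyme gene *Miox* (0.97), *mt-Nd4l* (0.97) and the corepressor gene *Ncor1* (0.96).
At the low end stood *Junb*, an AP-1 gene, with 32 UMIs in KO mix and 64 in WT mix (log2 ratio -1.56, -2.22 to -0.92), and *Btg2*, an early antiproliferative gene, with 52 and 100 UMIs (-1.50, -2.01 to -1.002). Both were nearer to 0 when podocytes were split by *Xist*, an alternative chosen after seeing the data. *Junb* was then at -0.72 in podocytes without a *Xist* UMI and at -0.98 in those with one, and *Btg2* at -0.76 and -0.23. These genes were followed by *Fosb* (-1.28, and -1.84 without and -0.18 with a *Xist* UMI), the complement inhibitor gene *Cd59b* (-1.03), the class I antigen gene *H2-K1* (-0.98), *mt-Nd3* (-0.94), the phosphatase gene *Dusp1* (-0.93) and the chaperone gene *Hspa5* (-0.87). *Cd59b* and *H2-K1* have near-identical relatives, so their reads may be split between copies.
Of the 22 early-response and heat-shock genes that entered, 17 were lower in KO mix, beside 820 of all 1662 genes, and 6 were at most 0.5-fold, beside 50 of all genes (3.01%), namely *Junb*, *Btg2*, *Fosb*, *Ccn1*, *Ier2* and *Klf6*. The median log2 ratio of the list was -0.48, beside 0.01 over all genes, and *Hspb1* was the 1 member at least 2-fold higher, with 25 against 5 UMIs. The list median was -0.25 in podocytes without a *Xist* UMI and turned to 0.09 in those with one, of which WT mix held 4. These genes are known to respond to tissue dissociation. Taken per cell, the list took 0.491 to 2.96% of UMIs in KO mix podocytes (median 0.973%) and 0.379 to 3.36% in WT mix podocytes (median 1.31%), so the cells of both libraries overlapped. In the same libraries the list lay 0.49 below the median of all genes in podocytes on the raw log2 scale (-0.49), and between -0.78 and 0.41 from it in the 15 other types, below it in 13. *Junb* had its lowest ratio in podocytes (-1.46), with 11 of 15 other types also below 0.

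*Fame*, listed as *ccdc198*, was highest in loop of Henle cells (LOH), at 279.8 CPM, and at 31.1 CPM in podocytes. It gave 0, 4 and 2 UMIs in the podocytes of KO female, KO male and KO mix, against 0 and 1 UMIs in WT female and WT mix, with all 4 of KO male in 1 of its 2 cells. In glomerular endothelial cells *Fame* was at 54.5, 39.4 and 21.0 CPM in KO female, KO male and KO mix, against 73.8 and 23.6 CPM in WT female and WT mix. The podocytes of the mixed libraries lay near these levels, at 17.9 CPM in KO mix and 12.3 CPM in WT mix, and the 1 cell of KO male lay above them. In all cells it was at 148, 127 and 83.1 CPM in KO female, KO male and KO mix, against 196 and 71.5 CPM in WT female and WT mix. The stop codons do not remove the 3′ end that is counted, so these counts do not check the knockout.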

How the data were processed

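Droplet (10x, 3′ version 3) single-cell RNA-seq of 5 libraries was analysed from the deposited files. Reads were mapped to mm10 and counted by the authors (Cell Ranger 4.0.0), and the deposited matrix holds raw counts of 17389 genes in 14197 cells. Per the submitters' processing notes Seurat 3.2.2.9001 was used. The authors kept genes seen in at least 3 cells and cells with at least 1000 counts and at most 50% mitochondrial UMIs. They also deposited, per cell, the percent of mitochondrial UMIs, the Scrublet doublet score, the library, run and cell type. The UMAP coordinates are a score of the authors without unit. Libraries held 1794 to 3567 cells and 9791091 to 15950717 UMIs, and 50 cells shared a barcode with a cell of another library, 0 of them podocytes.

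Podocyte UMIs were summed per library. KO was compared with WT in edgeR 4.0.16 (quasi-likelihood, TMM, robust, library size over all genes, at least 20 UMIs, Benjamini-Hochberg at 0.05), with DESeq2 1.42.0 and limma 3.58.1 (voom) as alternatives, and cell numbers with total cells as offset. The script was tested on simulated data. CPM is UMIs per 1000000 podocyte UMIs of a library. Intervals are exact (Poisson or binomial, 95%), a count of 0 is limited by 3 counts, and both cover counting error only. Other alternatives were no filter, 50 UMIs, libraries with at least 5 podocytes, a block for mixed libraries, raw totals, at most 25% mitochondrial UMIs, thinning to 1000 UMIs, no highest 10% of Scrublet scores, equal weight per cell, and each library left out. Coordinates are from GENCODE vM21 (GRCm38), matched by name for 337 of 337 genes named or listed. Software was matplotlib 3.10.9, pandas 2.3.3, scipy 1.17.1 and numpy 2.4.6 under Python 3.11.15, and R 4.3.3.

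Named were up to 6 members per list with the most podocyte UMIs (at least 20) and members whose low count is the statement, the 15 leading genes, the 8 highest and 8 lowest mixed-library ratios with at least 50 UMIs, *Fame*, and the 4 lowest p per list. Some others (*Sgk1*, *Ctla2a*, *Tln1*, *Hspb1*, *Kap*, *Gpx3*) were named after their values were seen. The members and lists were chosen with earlier results of these data known. Some members of the lists are not reported here. Replicates are libraries, not cells.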

Additional observations from a re-analysis of the deposited data

How the results depend on the processing

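The absence of called genes between KO and WT podocytes held under DESeq2, limma-voom, no filter, 50 UMIs, the block for mixed or single-sex libraries (smallest adjusted p = 0.999) and each library left out (0 to 0 called genes, with the smallest adjusted p at 0.0708 without KO female, beside 0.0849 with all libraries). Leaving out either WT library leaves 1 WT library, so those fits add nothing to this absence. The fits of libraries with at least 5 podocytes have KO mix as the 1 KO library, without a replicate. Neither calls nor their absence are read from them. As planned they put 0 genes past the threshold. With genes kept over all 5 libraries, chosen after seeing the data, they put 8 of 1943 genes (0.412%) past it, with either library size. Without the deepest WT female podocyte, also chosen after seeing the data, that number was 0. The share of podocytes kept its sign and missed the threshold under each alternative except without WT mix, where the log2 difference reversed to 0.60; with each library left out it ran from -2.96 to 0.60. The count past 2-fold between the mixed libraries was 121, and 9 with at least 50 UMIs, 40 after thinning to 1000 UMIs and 236 in podocytes with a *Xist* UMI, an added alternative with 19 cells in KO mix and 4 in WT mix; fewer genes or fewer cells enter each. The median of the early-response list was -0.48, and -0.67 with at most 25% mitochondrial UMIs, -0.44 after thinning, -0.25 in podocytes without a *Xist* UMI and 0.09 in those with one. Of the log2 ratios of named genes 22 moved past their intervals, among them *Junb*, *Btg2* and *Fosb* when split by *Xist*. *H2-K1* (1.31 in podocytes with a *Xist* UMI) and *Dusp1* (0.06 in those without) moved past theirs and turned sign. So did the markers *Synpo* (1.20) and *Magi2* (0.62) in podocytes with a *Xist* UMI. Marker levels stayed within their counting intervals in 57 of 60 cases; among the others, *Cdkn1c* in KO mix (5966 CPM) and WT mix (5790 CPM) was above them with at most 25% mitochondrial UMIs. The causes were not tested. The libraries share no replicate number that pairs mice, but the labels match KO female with WT female and KO mix with WT mix; with these pairs as a replicate block and KO male left out, an added alternative with 1 residual degree of freedom, the log2 difference of the share was -0.73 and 0 of 1917 genes were called (9 at an unadjusted p under 0.05). Depth limits every statement on KO female and KO male, where 1 UMI is worth 703 and 345 CPM.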
